A study of Drosophila melanogaster with 34 samples.

Results

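Control cells of the cultured Drosophila melanogaster line S2R+ were set against control female fly heads, at 72 positions of ribosomal RNA (rRNA). The 15 libraries used, 4 of cells and 11 of heads, were taken by their group labels out of 34. The cells had received double-stranded RNA against the bacterial gene lacZ, the control of an RNA interference experiment on Fibrillarin (LacZ cells). The heads formed 3 control groups. The first, 3 libraries, was kept on 5% sucrose for 8 days as the control of a paraquat experiment (sucrose heads). The second, 4 libraries, was kept in darkness at 25 °C for 8 days as the middle temperature of a heat experiment (25 °C heads). The third, 4 libraries, received home-made food at 1x strength for 10 days as the control of a nutrient experiment (1x food heads). The heads received no double-stranded RNA. S2R+ is a line derived from fly embryos, with properties of blood cells; the labels enter its cell type as mesenchymal stem cells. The tables hold rRNA positions only, so neither label could be checked against marker genes. The sources used here give neither strain, age nor RNA extraction of the heads, nor whether replicates were separate cultures or fly pools, so p-values measure the spread between libraries, which may be technical. The group label of the sucrose heads, d17_CTR, carries a tag, d17, whose meaning was not established and which was not read as an age.

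2′-O-methylation adds a methyl group to the ribose of a nucleotide. Most of it in rRNA is laid down by box C/D snoRNPs: a guide snoRNA pairs with the target, and the protein Fibrillarin, the methyltransferase, modifies a nucleotide of the duplex. RiboMeth-seq cuts RNA by alkaline hydrolysis, to which the bond beside a methylated ribose is resistant, so that few reads end there. Many sites are methylated in nearly every ribosome, while others are modified in a fraction of them and can differ between tissues.

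The methylation score is the authors' level score per site, with no unit; values near 1 stand for strong protection. A site name gives the rRNA, the methylated base and its position, so 18S Am441 is a methylated A at position 441 of 18S rRNA. Some names carry a bracketed tag, [Psi] or [m62A], kept as deposited. Whether the score at tagged sites measures 2′-O-methylation was not tested. The 18S rRNA holds 24 of the 72 sites, the 28S rRNA 47 and the 5.8S rRNA 1, and the tables list guide RNAs for 59, a methyltransferase for 2 and an unknown guide for 11. Median coverage over the sites was 28370.5 to 61338 reads in LacZ cells and 37685 to 80583.5 reads in control heads. The library numbers the authors gave fall into 4 separate stretches, called runs here: LacZ replicates 1 and 2, LacZ replicates 3 and 4, the sucrose heads, and the 25 °C with the 1x food heads. That these runs were sequencing or preparation batches is an inference, since the sources used here state no batches. No run holds both cells and heads, so tissue and run cannot be told apart in any difference given here.

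LacZ replicate 3 stood apart from the other cell libraries. Averaged over the 72 sites, the score was 0.913, 0.915, 0.892 and 0.913 in LacZ replicates 1 to 4. The mean per group was 0.908 ± 0.0109 in LacZ cells (SD, n = 4), against 0.954 ± 0.00191 in sucrose heads (n = 3), 0.945 ± 0.00333 in 25 °C heads (n = 4) and 0.949 ± 0.00264 in 1x food heads (n = 4). The lowest of the 11 head libraries was at 0.941, above every cell library. Cells minus the equally weighted mean of the head groups came to -0.0410, with p = 0.000733 in a two-sided exact permutation test, the smallest its 1365 regroupings can give. Without LacZ replicate 3 the difference was -0.0355 (exact p = 0.00275, again the smallest possible), and it was -0.0354 for replicates 1 and 2 alone and -0.0465 for replicates 3 and 4 alone. With scores centred on each library's median it was -0.0129.

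**Figure D1:**
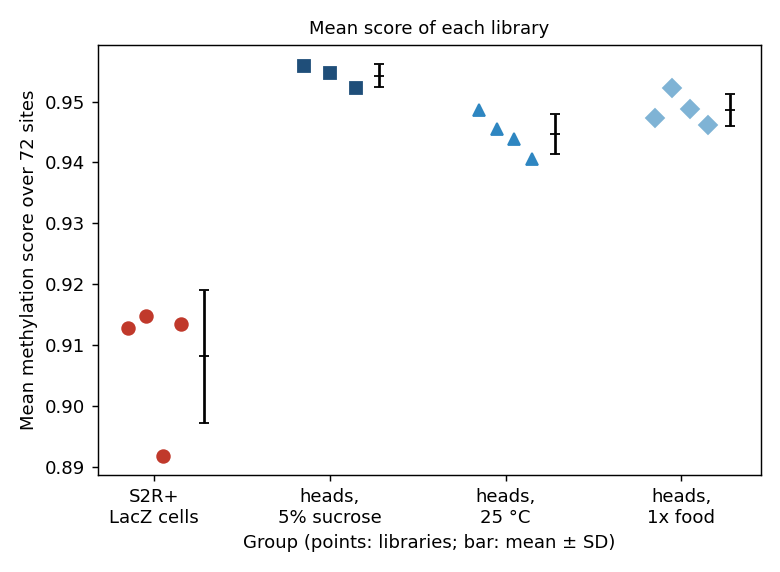
Mean methylation score over the 72 sites (vertical axis, not starting at 0) of each library, with LacZ cells left of the 3 head control groups; bars give mean ± SD. All 4 cell libraries, at 0.892 to 0.915, lie below all 11 head libraries, and LacZ replicate 3 is the lowest.

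Site by site, methylation was mostly lower in the cells, by small amounts at most sites and by large amounts at a few in 18S and 28S rRNA. LacZ cells scored lower than the mean of the head groups at 49 of the 72 sites and higher at 3, and 20 sites did not pass (limma, Benjamini-Hochberg adjusted p under 0.05). These calls make up 72.2% of the sites in either direction, 68.1% lower and 4.17% higher. Of the 49 lower sites, 5 differed by at least 0.1, 11 by 0.05 to 0.1 and 33 by less than 0.05, among them 16 by less than 0.02. The median difference over all sites was -0.0197. The limma fit gives cells and heads a shared spread per site. At 47 sites the cell SD was above the SD of every head group, so limma intervals and p-values there can be too narrow. In 28 sites, 38.9% of the total, all 4 cell libraries scored below all 11 control heads, and in 0 sites above them; in 22 sites, 30.6%, they scored below all 26 head libraries of the series, treated heads included. Without LacZ replicate 3 and without any other single library, the count of sites that passed stayed between 49 and 53, and 45 sites were lower in every such fit. With scores centred on each library's median, which differed by -0.0280 between cells and heads, the split turned to 19 lower and 36 higher, so the direction at small differences holds for the deposited scale.

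**Figure D2:**
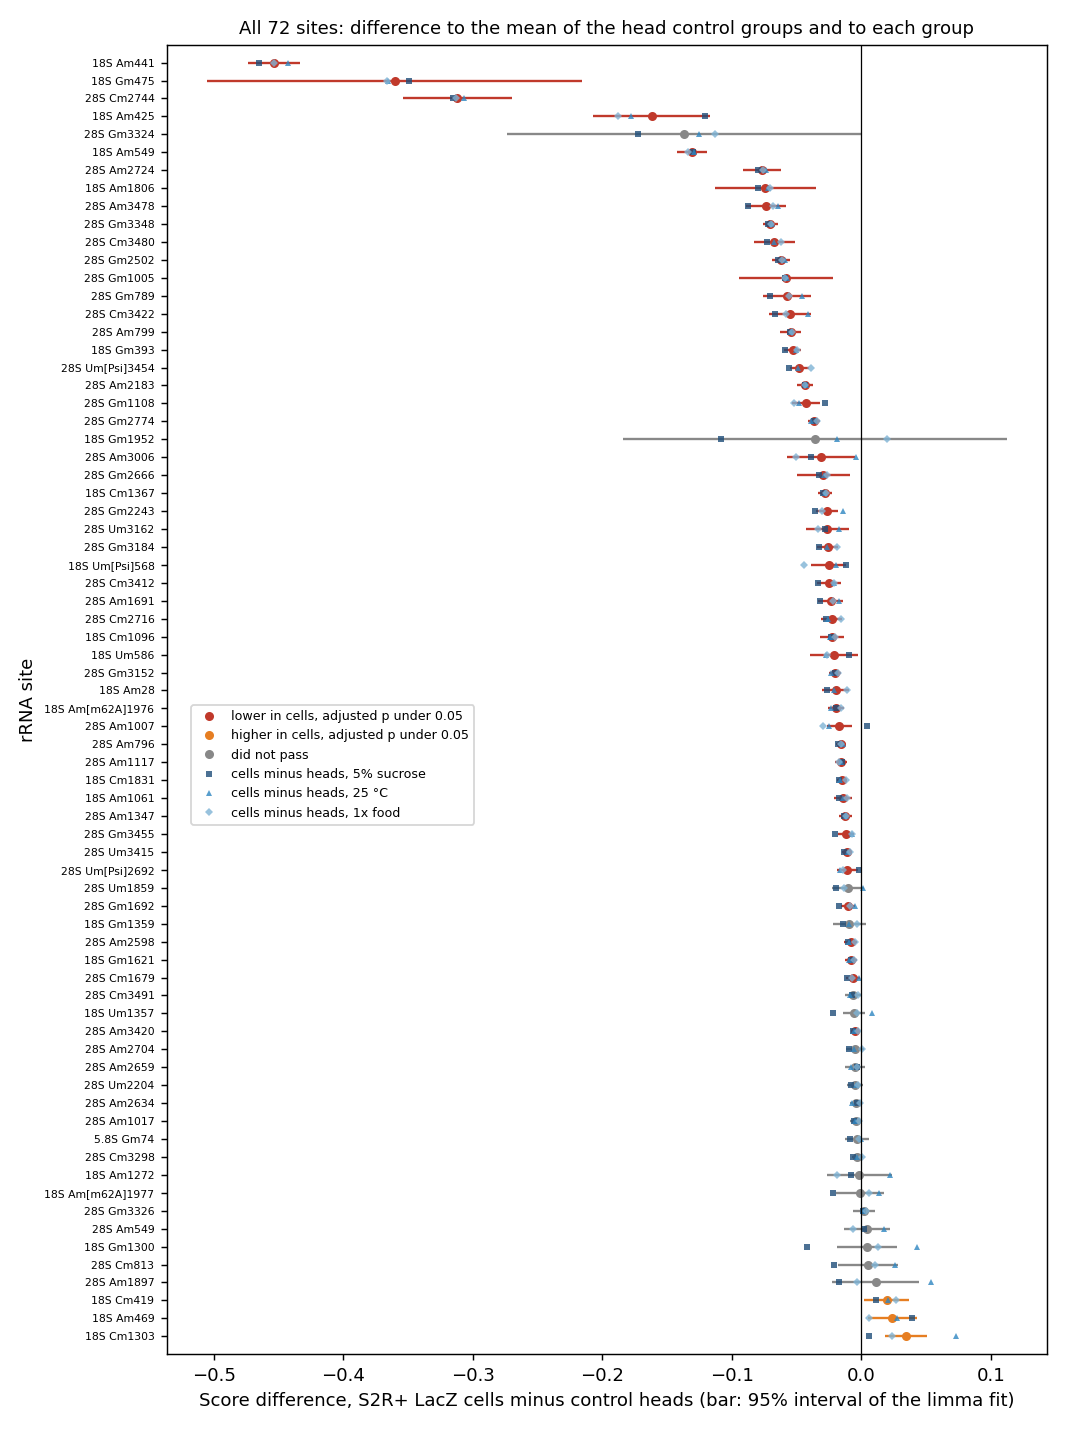
Score difference of LacZ cells minus control heads at all 72 sites (horizontal axis), ordered by size, with large circles and bars for the difference to the mean of the head groups and its 95% interval, and small symbols for each head group. Differences run from -0.454 at 18S Am441 to 0.0343 at 18S Cm1303, and the difference at 18S Gm1300 to the sucrose heads and to the 25 °C heads has opposite signs.

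The largest difference was at 18S Am441, for which 1 guide is listed. Its score was 0.528, 0.471, 0.465 and 0.491 in LacZ replicates 1 to 4, against 0.922, 0.945 and 0.962 as lowest, median and highest of the control heads. The groups lay far apart, and the head groups, at 0.954 in sucrose, 0.931 at 25 °C and 0.942 in 1x food heads, were close to each other. The difference was -0.454 (95% interval -0.474 to -0.434, adjusted p = 1.22e-13, limma). Reads ended at this position in 37.3 per 1000 reads over it in the cells and in 4.72 per 1000 in the heads, adding 5′ and 3′ ends. The 4 cell libraries were close to each other at this site, with an SD of 0.0283 around a mean of 0.489.

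18S Gm475, with 2 guides listed, was the next. It scored 0.731, 0.754, 0.257 and 0.639 in LacZ replicates 1 to 4, against 0.939, 0.961 and 0.974 as lowest, median and highest of the control heads. All cell libraries were below all heads, and replicate 3 was far below the other cells. The difference was -0.360 (95% interval -0.505 to -0.216, adjusted p = 0.000356, limma), and -0.248 without replicate 3 (adjusted p = 6.62e-08, limma). The 3 remaining cell libraries alone therefore lay apart from the heads, at a smaller distance. The cells varied far more than the heads here, so an interval and p-values from a shared spread can understate the variation of the cells.

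28S Cm2744, also with 2 guides listed, is a site close to full protection in heads. Its score was 0.595, 0.647, 0.751 and 0.701 in LacZ replicates 1 to 4, against 0.977, 0.987 and 0.990 as lowest, median and highest of the heads. The cells and heads did not overlap, and the 2 cell runs did not overlap either, replicates 3 and 4 being higher by 0.105 (adjusted p = 0.000364, limma). The difference to heads was -0.312 (95% interval -0.354 to -0.270, adjusted p = 1.29e-08, limma), and each cell run alone passed, at -0.364 for replicates 1 and 2 and -0.259 for replicates 3 and 4. Read ends numbered 36.0 per 1000 reads in the cells and 1.92 per 1000 in the heads, a ratio of 18.7.

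18S Am425 and 18S Am549 complete the sites past 0.1. At 18S Am425 the score was 0.768, 0.822, 0.720 and 0.669 in LacZ replicates 1 to 4, against 0.833, 0.922 and 0.947 as lowest, median and highest of the heads. The highest cell library came close to the lowest sucrose head, without overlap, and here the head groups were less alike: sucrose heads averaged 0.865 ± 0.0292, 25 °C heads 0.923 ± 0.0131 and 1x food heads 0.933 ± 0.0112. The difference was therefore -0.120 to sucrose heads, -0.178 to 25 °C heads and -0.188 to 1x food heads, and -0.162 to their mean (adjusted p = 1.52e-05, limma). LacZ replicates 3 and 4 were lower than replicates 1 and 2 (difference -0.1004, adjusted p = 0.00567, limma).
18S Am549 scored 0.841, 0.841, 0.819 and 0.810 in LacZ replicates 1 to 4, against 0.952, 0.959 and 0.964 as lowest, median and highest of the heads. Both groups were tight and far apart, with head group means of 0.957 to 0.961. The difference was -0.131 (95% interval -0.142 to -0.119, adjusted p = 1.56e-10, limma).

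A sixth site differed by more than 0.1 without passing. 28S Gm3324 scored 0.869, 0.847, 0.426 and 0.582 in LacZ replicates 1 to 4, against 0.751, 0.811 and 0.862 as lowest, median and highest of the heads. Replicates 1 and 2 lay at or above most heads, and replicates 3 and 4 below all of them. The difference was -0.137 (95% interval -0.274 to 0.000366, adjusted p = 0.0686, limma). For replicates 1 and 2 alone it was 0.0404 (adjusted p = 0.0666, limma), and for replicates 3 and 4 alone -0.314 (adjusted p = 5.36e-06, limma), so the sign depends on the cell run. Leaving out LacZ replicate 1 or 2 brought the site past the threshold (-0.199 and -0.192), while without replicate 3 it was -0.0517. Its neighbour 28S Gm3326, 2 nucleotides away and sharing 1 listed guide with it, scored 0.982 to 0.993 in the cells and 0.973 to 0.993 in the heads, and its difference of 0.00223 (95% interval -0.00607 to 0.0105) did not pass.

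**Figure D3:**
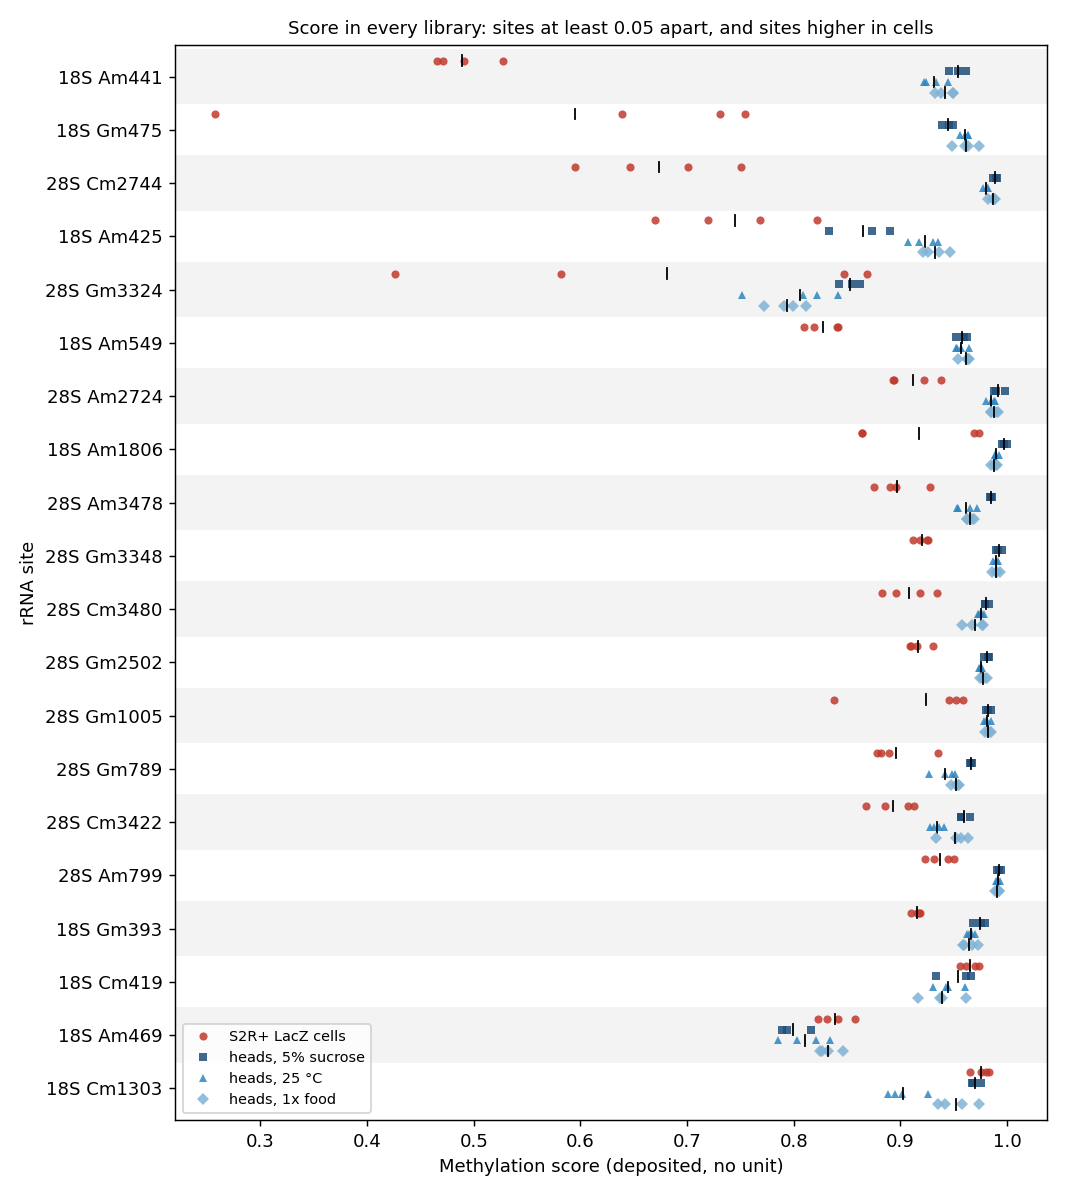
Methylation score (horizontal axis) in every library at the sites that differ by at least 0.05 and at the 3 sites higher in cells; red circles are LacZ cells, drawn above the blue symbols of the head groups, and black ticks are group means. Cells and heads are separate at 18S Am441, 18S Gm475, 28S Cm2744, 18S Am425 and 18S Am549, while at 28S Gm3324 the cell libraries lie on both sides of the heads.

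Of the 11 sites lower by 0.05 to 0.1, 10 have a listed guide. In 18S rRNA they were Am1806 (-0.0740) and Gm393 (-0.0530). In 28S rRNA they were Am2724 (-0.0766), Am3478 (-0.0734), Gm3348 (-0.0703), Cm3480 (-0.0673), Gm1005 (-0.0583), Gm789 (-0.0574), Cm3422 (-0.0552) and Am799 (-0.0544). The other was 28S Gm2502 (-0.0617), of unknown guide. With the 5 sites past 0.1, these are 16 sites, and all 16 passed against each head group on its own and with each single library left out. At 15 of them all cell libraries lay below all 11 control heads, the exception being 28S Gm789, where LacZ replicate 4 at 0.936 was above the lowest head at 0.927. At 12 of them the cells lay below all 26 heads.

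The sites of this group differed in how much the cells varied. At 18S Gm393 the cell libraries spanned 0.910 to 0.918, against 0.959 to 0.980 in the heads, and at 28S Gm3348 they spanned 0.911 to 0.926, against 0.986 to 0.996. At 18S Am1806 replicates 1 and 2 scored 0.974 and 0.969 and replicates 3 and 4 both 0.864, against 0.985 to 1.00 in the heads; each cell run alone passed, at -0.0204 and -0.128. At 28S Gm1005 the difference rested in part on 1 library: LacZ replicate 3 scored 0.838 and the others 0.946 to 0.959, and without it the difference was -0.0297 (adjusted p = 4.04e-07, limma). The site no longer passed with library run as a random block or with centred scores. Over all sites the median SD was 0.00941 in LacZ cells, against 0.00391 in sucrose, 0.00382 in 25 °C and 0.00501 in 1x food heads. The cell SD was above the SD of every head group at 47 sites, and without LacZ replicate 3 the median SD of the cells was 0.00707.

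Higher scores in cells were few and small, and all 3 were guided sites of 18S rRNA whose groups overlapped. 18S Cm1303 scored 0.976, 0.980, 0.965 and 0.983 in LacZ replicates 1 to 4, against 0.889, 0.942 and 0.975 as lowest, median and highest of the heads. The cells overlapped the sucrose heads and lay above all 25 °C heads. The difference was 0.0343 to the mean of the head groups (95% interval 0.0182 to 0.0504, adjusted p = 0.00118, limma), made up of 0.00568 to sucrose heads, which did not pass (adjusted p = 0.601), 0.0732 to 25 °C heads (adjusted p = 1.29e-05) and 0.0240 to 1x food heads (adjusted p = 0.0328). By exact permutation of this site its adjusted p was 0.0560.
18S Am469 scored 0.842, 0.832, 0.822 and 0.857 in LacZ replicates 1 to 4, against 0.786, 0.821 and 0.846 as lowest, median and highest of the heads. It lay above all sucrose heads and within the range of the 1x food heads except for replicate 4, which was higher, and replicate 3, which was lower. The difference was 0.0240 (adjusted p = 0.0264, limma), and the call was lost without LacZ replicate 1 or 4, with either cell run alone, with run as a random block, on log2 odds and by exact permutation.
18S Cm419 scored 0.962, 0.973, 0.956 and 0.970 in LacZ replicates 1 to 4, against 0.917, 0.942 and 0.966 as lowest, median and highest of the heads. The ranges overlapped in the upper part of the heads. Its difference of 0.0195 (adjusted p = 0.0433, limma) was the nearest of the higher sites to the threshold, and the call was lost without any of 10 single libraries, with either cell run alone, with run as a random block and with another of the deposited scores. Sites higher in cells in all 3 head comparisons numbered 0.

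The tested differences were also read against each head group, since the groups differ in treatment and run. The 3 comparisons share the LacZ libraries, so their calls are not independent. Against sucrose heads 49 sites were lower and 1 higher, 69.4% of sites in either direction (68.1% lower, 1.39% higher). Against 25 °C heads 45 were lower and 4 higher, 68.1% of sites (62.5% lower, 5.56% higher). Against 1x food heads 42 were lower and 2 higher, 61.1% of sites (58.3% lower, 2.78% higher). In all 3, 35 sites were lower. A single site, 18S Gm1300 of unknown guide, passed in both directions: cells averaged 0.899 ± 0.0153, against 0.941 ± 0.0165 in sucrose heads (difference -0.0420, adjusted p = 0.0173, limma) and 0.855 ± 0.0293 in 25 °C heads (difference 0.0433, adjusted p = 0.0105, limma).

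The head control groups differed among themselves at 11 sites, 15.3% (limma F-test), with sucrose heads highest at 8 of them and lowest at 3. Since the sucrose heads form their own run, treatment and run cannot be told apart there. This count was unsteady: without LacZ replicate 2, or without any single head library, it was 4 to 6. At 43 of the 52 sites that passed between cells and heads, the difference to heads was larger than the largest gap between head groups. These sites were selected for a large difference to heads relative to the spread within groups, so this count is partly built in and is no test. The exceptions include 28S Am1007, at 0.940 ± 0.00837 in cells, against 0.936 ± 0.00960 in sucrose, 0.965 ± 0.00813 in 25 °C and 0.970 ± 0.00371 in 1x food heads. It passed as lower against 25 °C heads (-0.0253) and 1x food heads (-0.0300) and did not pass against sucrose heads (0.00424, adjusted p = 0.508, limma). Against the mean of the head groups it was at -0.0170, a call lost with LacZ replicates 3 and 4 alone and by exact permutation. At 28S Gm1108 the order of the head groups was similar, sucrose heads at 0.949 and the others at 0.969 and 0.973, and the cells, at 0.921 ± 0.0155, lay below all of them.

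**Figure D4:**
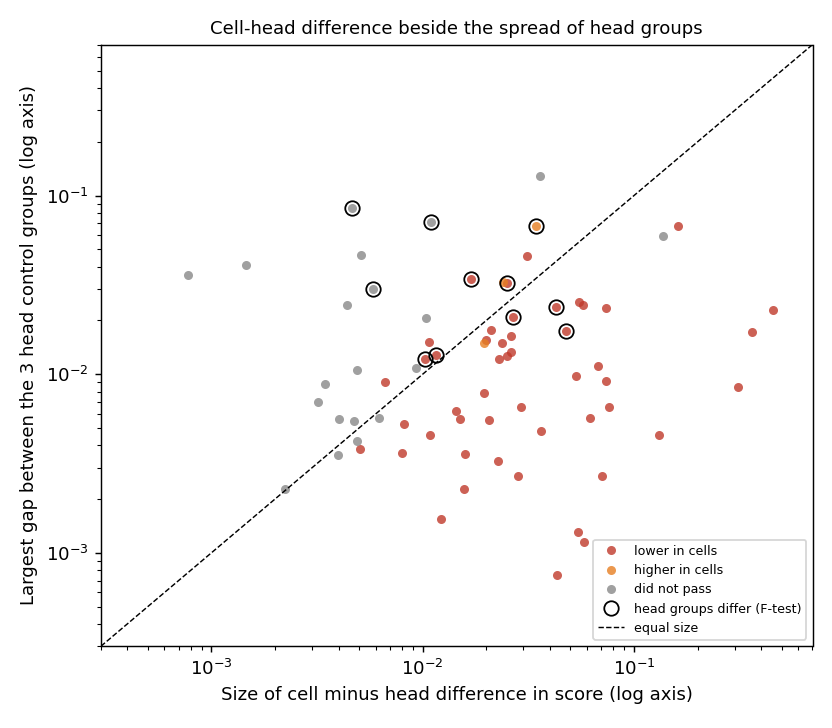
Size of the cell minus head difference (horizontal log axis) against the largest gap between the 3 head control groups (vertical log axis) at each of the 72 sites; rings mark the 11 sites at which the head groups differ. Points right of the dashed line, 43 of the 52 that passed among them, differ more between cells and heads than between head groups.

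The cell libraries differed between their own runs at 17 sites, 23.6%, with replicates 3 and 4 lower at 8 (11.1%) and higher at 9 (12.5%). Beside the sites already given, replicates 3 and 4 were higher at 28S Am2724 (0.0366), 28S Cm3480 (0.0373), 28S Cm3422 (0.0331) and 28S Um1859 (0.0291), and lower at 18S Am549 (-0.0267) and 18S Cm1096 (-0.0204). With 2 libraries a run the count moved to 8 without LacZ replicate 1 and to 27 without replicate 4; the run is then a single library, assumed to vary like the other groups. Taken alone, replicates 1 and 2 were lower than heads at 49 sites and replicates 3 and 4 at 46, and 41 sites were lower in both, including all 16 that differed by at least 0.05.

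Classes of sites are described by counts and medians, beside the 49 lower and 3 higher of 72 sites and the median of -0.0197 over all. In 18S rRNA 15 of 24 sites were lower and 3 higher (median -0.0197), and in 28S rRNA 34 of 47 were lower and 0 higher (median -0.0205); the single 5.8S site, Gm74, did not pass (-0.00344, 95% interval -0.0125 to 0.00561). By position, 8 of the 10 sites in the first 600 nucleotides of 18S rRNA were lower and the other 2 higher (median -0.0391), while of the 14 further sites 7 were lower and 1 higher (median -0.0118). Of the 5 sites past 0.1, 4 lay in that stretch, between positions 425 and 549. The split at 600 nucleotides was not among the planned classes. Since it encloses those 4 sites, the contrast can follow in part from where the bound was placed. By base, 19 of 28 A, 9 of 14 C, 15 of 21 G and 6 of 9 U sites were lower.

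By number of guides, 17 of 23 sites with 1 listed guide and 25 of 36 with 2 or more were lower. Of all 59 guided sites 42 were lower and 3 higher (median -0.0205). Of 15 pairs of sites that share a listed guide, both members were lower in 11, neither passed in 3, and in 1 the members passed in opposite directions. Since 68.1% of all sites were lower and some sites enter several pairs, agreement within pairs is a description with no test. The pair with opposite calls was 18S Am469 and 18S Gm475, 6 nucleotides apart with 1 guide in common, at 0.0240 and -0.360. The call at 18S Am469 was lost in the settings given above. Among pairs without a call, 28S Gm3324 and 28S Gm3326 also had opposite signs (-0.137 and 0.00223). 28S Am3478 and 28S Cm3480, 2 nucleotides apart with 4 guides in common, were both lower, at -0.0734 and -0.0673. 28S Cm2716 and 28S Am2724, 8 nucleotides apart with 3 guides in common, were lower by different amounts, at -0.0230 and -0.0766. 28S Am796 and 28S Am799, 3 nucleotides apart with 1 guide in common, were at -0.0158 and -0.0544. With centred scores 28S Cm2716 and 28S Am796 turned to 0.00503 and 0.0122, and with another deposited score 28S Cm2716 turned to 0.299. Centring also turned the pair members 28S Am1117 (0.0123), 28S Am1691 (0.00433), 28S Gm1692 (0.0178), 28S Cm3412 (0.00303) and 28S Um3415 (0.0172). It raises every difference by the 0.0280 between library medians, so every pair member with a smaller negative difference turned. These include 18S Um586 and 28S Cm1679, at -0.0211 and -0.00661 before centring. The calls at 28S Gm1692, 28S Cm3412 and 28S Um3415 were each also lost with another deposited score. The differences at 28S Am3478, 28S Cm3480, 28S Am2724, 28S Am799 and 28S Gm1108 stayed negative. Such close sites can enter each other's scores as neighbours. The guide named by the gene reference, snoRNA:Me18S-G1358c, is listed for 18S Um1357 and 18S Gm1359, and neither passed, at -0.00580 and -0.00926. With centred scores both passed as higher, at 0.0222 and 0.0188 (adjusted p = 3.32e-05 and 0.00328, limma).

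Of the 11 sites of unknown guide, 5 were lower and 6 did not pass (median -0.0104). 28S Gm2502 was the single site of these to pass with a difference of at least 0.05. It scored 0.916 ± 0.00963 in LacZ cells, against 0.981, 0.975 and 0.978 in sucrose, 25 °C and 1x food heads, with all cells below all 26 heads. The others of unknown guide that passed were named after their values were seen, except 18S Um[Psi]568. They were 28S Am3006 (-0.0312), 28S Um3162 (-0.0262), 18S Um[Psi]568 (-0.0251), which did not pass with LacZ replicates 3 and 4 alone, and 18S Am[m62A]1976 (-0.0196). The call at 28S Am3006 was lost by exact permutation (adjusted p = 0.108), with run as a random block, with a replicate block and without any of 5 single libraries. The 28S Am3006 call was also lost with LacZ replicates 3 and 4 alone and with centred scores (-0.00312), and another deposited score gave 0.101 there. The call at 28S Um3162 was lost with run as a random block and with LacZ replicates 3 and 4 alone. It was lost with centred scores too, where the difference turned to 0.00187. At 18S Am[m62A]1976 the cells averaged 0.946 and all lay below all 26 heads, while coverage went down to 200 reads in a head library. This tagged site was the exception among the lower sites in its read ends, which were not higher in cells. With centred scores its difference turned to 0.00847. Both sites with a named methyltransferase, adjacent in the A-loop of 28S rRNA where aminoacyl-tRNA is placed, were lower. 28S Um[Psi]3454, for which the tables name CG8939, scored 0.908 ± 0.00469 in the cells, against 0.964, 0.957 and 0.947 in the head groups (-0.0479, adjusted p = 3.41e-08, limma). 28S Gm3455, annotated with SPB1 of yeast, scored 0.968 ± 0.00683, against 0.988, 0.975 and 0.975 (-0.0116, adjusted p = 0.00270, limma). With centred scores this difference turned to 0.0164, and with another deposited score it did not pass.

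The 20 sites that did not pass were in most cases measured closely enough to bound the difference, given the shared spread that the fit assumes. For 18 of them the 95% interval lay within ±0.05. The 5 smallest differences included 5.8S Gm74, at -0.00344, with 28S Cm3298 at -0.00319 and 28S Gm3326 at 0.00223, and were smallest at 18S Am1272 (-0.00146) and 18S Am[m62A]1977 (-0.000777). The widest of their intervals, at 18S Am1272, ran from -0.0268 to 0.0239. The coverage at 18S Am[m62A]1977 was 391 to 566 reads in the cells and 142 to 669 reads in the heads. Beside 28S Gm3324, the exception was 18S Gm1952, the single site at which heads averaged under 0.8: it scored 0.175, 0.221, -0.230 and 0.252 in LacZ replicates 1 to 4, against 0.0194 to 0.273 in the heads, and its interval ran from -0.184 to 0.112. The negative value is the only score below 0 among the 1080 of the 15 libraries.

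Read ends, which were deposited beside the scores and are the raw material of a RiboMeth-seq score, were also compared. Ends per 1000 reads were higher in cells at 48 of the 49 sites with a lower score, with a median ratio of cells over heads of 2.14. Over all 72 sites they were higher in cells at 62, with a median ratio of 1.71, and the median ratio of the 20 sites that did not pass was 1.08. The exception among the lower sites was 18S Am[m62A]1976. At 18S Cm1303, 18S Cm419 and 18S Am469, the sites with higher scores, the ratio was 0.423, 0.547 and 0.778. Since these sites were selected by a score made from read ends, this agreement is largely built in and is no test.

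**Figure D5:**
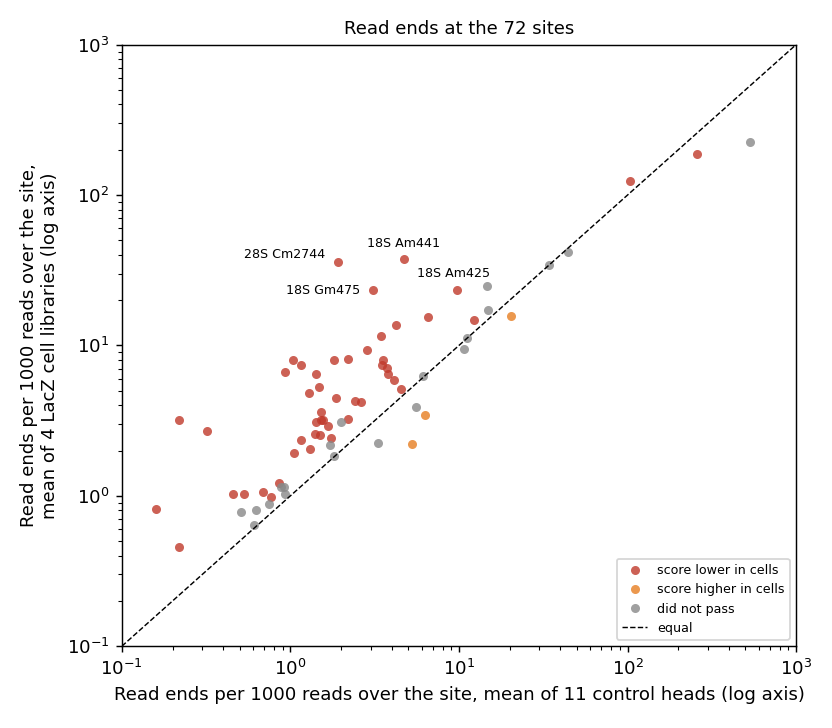
Read ends (5′ plus 3′) per 1000 reads over the site, averaged over LacZ cells (vertical log axis) and over control heads (horizontal log axis), at the 72 sites. Red points of sites with a lower score in cells lie above the dashed line of equality at 48 of 49, and orange points of the 3 higher sites lie below it. Read ends are the raw material of the score, so this is largely built in.

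By library number the Fib knockdown cells share runs with the LacZ cells, which are their controls, so both sets of values share libraries. Over all 72 sites, the highest of the 4 Fib libraries was below the lowest LacZ library at 57 (79.2%). This held at 42 of the 49 sites lower in LacZ cells than in heads and at 15 of the other 23. At 18S Am441 Fib cells averaged 0.195 ± 0.0716, against 0.489 ± 0.0283 in LacZ cells and 0.942 in heads, and at 28S Cm2744 they averaged 0.425 ± 0.0467, against 0.673 ± 0.0672 and 0.985. The 7 remaining lower sites were 18S Gm475, 18S Am1806, 28S Gm3455 and 4 sites of unknown guide. At 28S Am3006 and 28S Um3162 among these, Fib cells averaged 0.866 and 0.872, against 0.853 and 0.863 in LacZ cells. The lowest LacZ library sets this criterion. At 18S Gm475 that was replicate 3, far below the other LacZ cells, and at 18S Am1806 LacZ replicates 3 and 4 were below replicates 1 and 2. Missing the criterion there does not show that Fib cells were not lower on average.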

How the data were processed

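RiboMeth-seq libraries were made from 150 ng of total RNA hydrolysed for 16 min at 96 °C and read in single-end mode over 50 bases, per the labels' protocols, which describe cells only. Trimmomatic 0.39, Bowtie2 and the build dm6 are named in the submitters' processing notes; the sources used here do not give what reads were aligned to, how they were filtered or how scores were computed. The authors deposited 3 scores per site and library, of which the level score was used as deposited. The authors deposited coverage as a signal of reads over the position, without normalization, and read ends with 0.1 as placeholder for none (in the 15 libraries, 69 values at 5′ and 5 at 3′ ends, set to 0 here). No counting interval was computed, since that calculation is unknown.

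Scores were fitted per site with limma 3.58.1 in R 4.3.3 over the 4 groups (lmFit, eBayes, two-sided), with head groups weighted equally and Benjamini-Hochberg adjustment over 72 sites at 0.05. Library means were compared by exact permutation of the cell mean minus the plain mean of the head libraries (Python 3.11.15, pandas 2.3.3, numpy 2.4.6, scipy 1.17.1). Figures used matplotlib 3.10.9. The code was tested on simulated data. Sites named are those that differ by at least 0.05, those that passed as higher, the 5 smallest differences and the 10 of smallest p between head groups and between cell runs; others are named as members of a class or pair, or after their values were seen. Comparison, classes and lists were chosen with earlier results of these data known. Alternatives were the other scores, log2 odds with 0.01 added, centring, a coverage minimum of 1000 reads, robust variance, a replicate block, run as a random block, each cell run alone, each library left out, and exact permutation per site. Read ends differed beyond sampling noise in all 21 within-group pairs of libraries (chi-square over its degrees of freedom 2.66 to 32.5), so no pair looked like the same data deposited again. That test covers counting error only, and repeat libraries of one RNA could differ as much. A second numbering, given for 26 sites, was not used.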

Additional observations from a re-analysis of the deposited data

Results flagged for a closer look

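Within groups of 4 libraries, a library lay far from the others in 9 of the 111 groups tested, where chance alone gives about 1 in 20. The groups share libraries and cover named sites, partly chosen for differences between cell runs or head groups. An excess over chance was therefore not tested. LacZ replicate 3 was low in its mean score over all sites (0.892), at 28S Gm1005 (0.838) and at 5.8S Gm74 (0.964). LacZ replicate 2 was low at 18S Gm1300 (0.876) and LacZ replicate 4 high at 28S Gm2243 (0.965). Among heads, replicate 4 of the 25 °C group was low at 28S Cm2744 (0.977) and 5.8S Gm74 (0.977), replicate 1 of the 25 °C group high at 28S Gm2243 (0.970), and replicate 1 of the 1x food group low at 18S Am549 (0.954).

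The difference between cells and heads depended on the head group at 10 named sites, by the F-test between head groups. The largest gap between head group means was 0.0853 at 18S Gm1300, 0.0710 at 28S Am1897, 0.0676 at 18S Cm1303, 0.0342 at 28S Am1007, 0.0323 at 18S Um[Psi]568, 0.0299 at 18S Um1357, 0.0239 at 28S Gm1108, 0.0210 at 28S Gm2243, 0.0175 at 28S Um[Psi]3454 and 0.0121 at 28S Gm1692.

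It depended on the cell run at 10 named sites. LacZ replicates 3 and 4 minus 1 and 2 came to -0.354 at 28S Gm3324, -0.107 at 18S Am1806, -0.1004 at 18S Am425, -0.0267 at 18S Am549 and -0.0204 at 18S Cm1096, and to 0.105 at 28S Cm2744, 0.0373 at 28S Cm3480, 0.0366 at 28S Am2724, 0.0331 at 28S Cm3422 and 0.0291 at 28S Um1859.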

How the results depend on the processing

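Of 168 values of the comparisons over all alternatives run, 20 counts of sites that passed in either direction moved by over 1.5 times. The totals hide the split by direction, which is mostly higher under centring. Sites lower and higher in cells numbered 43 and 6 with one other deposited score, 44 and 3 with the other, 49 and 2 with log2 odds, 46 and 1 by exact permutation per site, 47 and 3 with a replicate block and 40 and 1 with run as a random block (estimated correlation 0.336). Replicate numbers did not pair the libraries: same-numbered libraries correlated between -0.582 and 0.431 (median -0.0883, 21 pairs), and the replicate block moved no count between cells and heads past 1.5 times. Against 25 °C heads 32 sites passed with run as a random block. Between head groups 5 sites passed with a deposited score other than the level score, 19 with log2 odds and 7 with a replicate block; between cell runs 8 passed with another deposited score and 6 with log2 odds. Leaving out 1 library gave 49 to 53 sites against the mean of the head groups, 43 to 52 against sucrose, 45 to 51 against 25 °C and 39 to 46 against 1x food heads, 4 to 14 between head groups, 8 to 27 between cell runs, and -0.0432 to -0.0355 for the mean score, which centring reduced to -0.0129. Centred scores gave 19 sites lower and 36 higher against the mean of the head groups, 17 lower and 30 higher against sucrose, 16 and 34 against 25 °C, and 18 and 34 against 1x food heads. For the 36 named sites, 857 of 935 values stayed on their side of the threshold, 28 were no longer past it, 12 newly passed and 38 changed sign. Under centring the difference became 0.0273 at 18S Am[m62A]1977, 0.0266 at 18S Am1272, 0.0249 at 28S Cm3298, 0.0246 at 5.8S Gm74, 0.0222 at 18S Um1357, 0.0178 at 28S Gm1692, 0.0177 at 28S Um1859, 0.0110 at 28S Am1007, 0.00534 at 18S Cm1096, 0.00292 at 18S Um[Psi]568 and 0.00140 at 28S Gm2243; this follows from removing the lower median of the cells. With the other scores it became 0.0225 and 0.0385 at 18S Am[m62A]1977 and 0.00426 at 28S Um1859, with a replicate block 0.000975 at 18S Am[m62A]1977, and with log2 odds -0.0179 at 18S Gm1300. With LacZ replicates 1 and 2 alone it became 0.0404 at 28S Gm3324, 0.00279 at 18S Am1272, 0.00260 at 5.8S Gm74, -0.00307 at 18S Gm1300 and -0.0205 at 28S Am1897, and with replicates 3 and 4 alone -0.00116 at 28S Gm3326 and 0.00419 at 28S Um1859; apart from centring and the cell runs, the cause was not tested. With 1 library left out, sites whose sign changed ranged from -0.00617 to 0.00472 at 18S Am[m62A]1977, -0.0106 to 0.00488 at 18S Am1272, -2.61e-06 to 0.00374 at 28S Gm3326, -0.00583 to 0.00298 at 5.8S Gm74 and -0.00195 to 0.0282 at 28S Am1897. 4 libraries of cells in 2 runs limit the precision, and sites with scores close to 1 have few read ends.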
